A study of Arabidopsis thaliana with 7 samples.

Results

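Wild-type Arabidopsis seedlings of the accession Col-0 were represented by 4 RNA-sequencing libraries (replicates 1 to 4), taken by their label from the 7 libraries of the series. The other 3 (replicates 2 to 4) came from tt4-11, a line labelled as a null for chalcone synthase, and serve here only as context. Both genotypes were harvested as whole seedlings 5 days after germination, on medium holding 2% sucrose, at 22 °C under 24-hour light (about 100 µE). Each sample was a 100 mg aliquot, so it pools many seedlings. The labels do not say whether the aliquots came from separate cultures or which of a pair of extraction kits was used for each, so the spread given below is that between these samples and may be technical.

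A light-grown seedling of this age lives on photosynthesis as well as on what remains of its seed. Its messenger RNA is known to be rich in transcripts for chlorophyll-binding proteins, Rubisco, ribosomes, cell walls and chemical defence. Polyadenylated RNA from a whole seedling mixes cotyledon, hypocotyl and root cells, so a lower level cannot be told apart as fewer cells of a type or less RNA per cell. Stress and nutrient genes of plants are known to change their transcripts quickly, some within minutes of a signal.

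The 4 Col-0 libraries held 2205449, 2099876, 2118112 and 2021368 reads in genes (replicates 1 to 4), over 21184 genes. All levels below are scaled reads, that is reads per gene multiplied by the authors' factor for each library, which is 1 for Col-0 replicate 4. The scaled totals still differed, at 2106629, 2018331, 2055516 and 2021368 in replicates 1 to 4. Reads were found for 19010 to 19409 genes in a Col-0 library, and 231 genes had none in any of the 4, which at 0 reads still allows up to 3 a library. No pair of the 4 was a duplicate, since read counts differed 2.36 to 5.44 times more (chi-square per degree of freedom) than sampling noise alone would give. TT4, the gene of chalcone synthase, had 3003, 2571, 3148 and 2464 scaled reads in Col-0 and 58.0, 96.7 and 54.9 in tt4-11, so all 3 tt4-11 libraries lay far below all 4 of Col-0. Levels of genes with several annotated transcript models are not absolute: the median gene with 1 model had 36.4 scaled reads, and the median gene with at least 4 had 4.65. UBQ10, a polyubiquitin gene that is normally abundant, stood at 0.955, 2.88, 1.94 and 18 scaled reads with 8 annotated models, and the cause was not tested.

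Promoters of 5 genes are shown first, because these genes were high in the same pair of Col-0 libraries and share a short motif. Each line gives the 250 bases before the annotated gene start, 5′ to 3′ on the gene's strand, read from the TAIR10.1 genome. Capitals mark CGCGTT, known as the rapid stress response element, and CACGTG, the G-box, searched on both strands, with a match on the other strand appearing as AACGCG. Where both strands match at overlapping positions, as in TCH2, the capitals run over 8 bases.
AT4G27657 (uncharacterized protein, chr4:13812739-13812988, plus strand): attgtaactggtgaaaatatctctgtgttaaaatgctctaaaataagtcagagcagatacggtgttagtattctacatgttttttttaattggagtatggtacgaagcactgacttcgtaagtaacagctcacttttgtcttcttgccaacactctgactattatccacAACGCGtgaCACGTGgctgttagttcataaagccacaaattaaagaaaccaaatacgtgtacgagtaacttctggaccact
ERD15 (a dehydration-induced protein, chr2:17268908-17269157, plus strand): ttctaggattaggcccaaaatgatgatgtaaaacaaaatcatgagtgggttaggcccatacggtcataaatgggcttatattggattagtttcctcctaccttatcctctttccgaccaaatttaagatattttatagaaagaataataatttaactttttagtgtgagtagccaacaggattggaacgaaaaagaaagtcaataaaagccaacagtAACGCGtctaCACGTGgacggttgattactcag
AT1G32928 (annotated as an Avr9/Cf-9 rapidly elicited protein, chr1:11930899-11931148, plus strand): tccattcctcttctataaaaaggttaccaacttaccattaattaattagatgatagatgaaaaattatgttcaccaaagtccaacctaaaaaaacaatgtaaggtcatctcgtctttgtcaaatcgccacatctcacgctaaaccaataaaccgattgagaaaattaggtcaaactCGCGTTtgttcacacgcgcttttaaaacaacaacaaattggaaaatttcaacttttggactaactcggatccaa
AT1G66500 (annotated as pre-mRNA cleavage complex II, chr1:24812662-24812911, minus strand): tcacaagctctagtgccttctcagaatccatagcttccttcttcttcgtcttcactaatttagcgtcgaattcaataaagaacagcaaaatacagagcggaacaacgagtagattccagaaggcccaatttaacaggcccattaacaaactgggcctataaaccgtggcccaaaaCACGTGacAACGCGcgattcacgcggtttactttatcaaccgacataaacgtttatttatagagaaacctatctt
TCH2 (a touch-induced calmodulin-like protein, chr5:14999620-14999869, minus strand): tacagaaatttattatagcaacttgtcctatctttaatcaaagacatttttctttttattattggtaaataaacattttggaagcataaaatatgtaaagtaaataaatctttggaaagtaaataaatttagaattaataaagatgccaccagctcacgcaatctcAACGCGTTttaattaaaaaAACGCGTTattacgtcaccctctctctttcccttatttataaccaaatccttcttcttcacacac

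The wild-type transcriptome was led by a defence enzyme of roots, by photosynthesis genes and by housekeeping metabolism, and no gene dominated it. The first 50% of the scaled reads fell in 1083 genes, and the 10 genes with the most reads held 3.80% ± 0.068 (SD, n = 4) of them. The 255 genes with a mean of at least 1000 scaled reads held 26.2% of reads, and 4305 genes between 100 and 1000 held 56.1%. Protein-coding genes held 99.4% ± 0.038 (SD, n = 4). Among genes with 1 annotated model alone, 709 held 50%.

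PYK10, the main myrosinase-like β-glucosidase of the endoplasmic reticulum bodies that defend roots and hypocotyls, led the list with 11658, 12223, 12628 and 12947 scaled reads in replicates 1 to 4. That is 0.603% of all reads from 1 gene, and the 4 values lay within a 1.11-fold range. THI1, which makes the thiazole part of vitamin B1, followed with 8957 ± 798 scaled reads (mean ± SD, n = 4), and LHCB1.3, a chlorophyll-binding protein of photosystem II, with 8359 ± 628. Next came the cell wall linker protein CWLP (7934 ± 1091), the vacuolar water channel TIP1;2 (7343 ± 353) and the nitrate reductase NIA2 (7225 ± 670.2). Nitrate reductase is the first enzyme of nitrate assimilation.

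Translation and central metabolism supplied the next ranks. RABE1b, annotated as a RAB GTPase homolog and known as the chloroplast elongation factor Tu, had 8228, 6525, 6279 and 6342 scaled reads, with replicate 1 above the other 3. The cytosolic elongation factor 2 gene LOS1 (6749 ± 523) and the enolase LOS2 (6102 ± 565) stood beside the photosystem antenna LHCB5 (6107 ± 276). HSP70-1, the main constitutive cytosolic chaperone of its family, had 7392, 5491, 4652 and 4931 scaled reads and was again highest in replicate 1. The glycolytic GAPC1 and the malate dehydrogenase c-NAD-MDH1 were also among the 20 genes with the most reads.

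Per kilobase of exon, which allows levels of genes to be compared, short transcripts moved up, and 11 genes were in the top 20 on both scales. PYK10 remained first at 6846 ± 308 scaled reads per kilobase (SD, n = 4), close to LHCB1.3 at 6796 ± 511. The Rubisco small subunit RBCS2B (6180.1 ± 662), the metallothionein MT2B (5723 ± 298), TIP1;2 (5692 ± 273) and THI1 (5577 ± 497) followed, and these 6 overlapped their neighbours within the spread of replicates. GER3 (3492 ± 295) and GER1 (3087 ± 744), germin-like proteins of the cell wall, and the chloroplast envelope protein OEP6 (2889 ± 259.7) appeared on this scale only. Of the 20 genes, 18 have 1 annotated model, the class whose median level in this table is highest. LHCB1 and RBCS genes have near-identical copies that can share reads, so single members are uncertain.

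**Figure D1:**
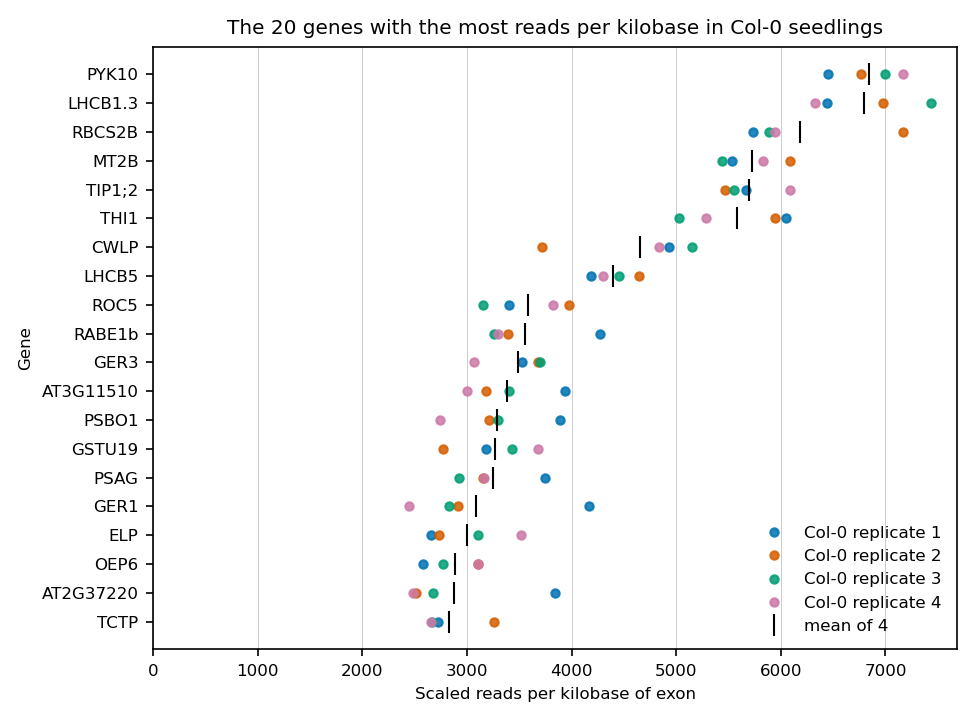
The horizontal axis gives scaled reads per kilobase of exon, with 1 point for each Col-0 replicate and a bar at the mean, for the 20 highest genes. PYK10 leads at 6846 and LHCB1.3 follows at 6796, and the points of neighbouring genes overlap from PYK10 down to THI1. Those of LHCB5 and the next gene, ROC5, do not.

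None of these 29 genes, the union of the top 20 on both scales, was among the variable genes defined below, and their CV beyond counting error ran from 0.0433 for LHCB5 to 0.240 for GER1. In tt4-11, 11 of the 20 highest per kilobase were lower and 1 was higher (limma with Benjamini-Hochberg adjustment). Of all genes tested, 6.55% were lower and 7.07% higher, shares not matched for level. The Col-0 values that ranked these 20 genes also entered that comparison, so nothing is read from the counts. The number of genes called over the whole table, 1811, dropped to 1135, 933 and 896 without tt4-11 replicates 2, 3 and 4. GER3 fell from 3519.7 ± 297 to 1389 ± 72 scaled reads (SD, n = 4 and 3; adjusted p = 6.44e-07 with limma). Its Col-0 libraries, at 3556, 3710.1, 3724 and 3089, all lay above the tt4-11 libraries at 1392, 1316 and 1459. LHCB5, the 1 gene that rose, went from 6107 ± 276 to 8230.1 ± 1008 (adjusted p = 0.0149 with limma), and all 3 tt4-11 libraries lay above all 4 of Col-0. Leaving out tt4-11 replicate 2 ended the LHCB5 call (adjusted p = 0.0650 with limma), as did leaving out its replicate 4 (0.0825).

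By gene group, ribosomal proteins took the largest share of the lists compared, 5.16% ± 0.21 of reads (SD, n = 4) over 335 genes. Photosystem and electron transport genes held 1.72% ± 0.071, Rubisco and Calvin cycle genes 1.57% ± 0.11, and light-harvesting genes 1.41% ± 0.11. The 16 listed genes of endoplasmic reticulum bodies and myrosinases held 0.782% ± 0.048, most of it PYK10. Tubulins and actins held 0.701% ± 0.046 and the nitrate assimilation list 0.70% ± 0.05.

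Markers of cotyledon and root tissues were both detected, though not those of every cell type. Mesophyll markers summed to between 12435 and 15018 scaled reads a library, led by LHCB1.3. Epidermal markers summed to between 1894 and 2357, with the wax and cuticle genes FDH (1571, 1268, 1310.1 and 1151) and CER5 (400.2, 394, 406 and 379). Of the root markers, the endodermal regulator SCR had 259.8, 228, 239 and 274 scaled reads. The root-hair wall protein PRP3 had 192, 149, 120 and 120, and was the 1 of 4 root-hair markers with a mean of at least 20. The 3 root meristem markers summed to only 19.1, 8.65, 5.82 and 13 scaled reads. Those of the root cap and columella were near 0, with BRN1 at 2.87, 2.88, 3.88 and 6 and FEZ at 0, 1.92, 0.970 and 2. The 3 flower markers listed in the table (AP1, AP3 and PI) had at most 3 scaled reads in any Col-0 library, and the pollen marker SKS13 had 0.955, 0, 0 and 0. The shoot meristem marker STM had 9.55, 3.84, 4.85 and 7. The 3 seed markers summed to 33.4, 62.5, 129 and 19 scaled reads, although 1 of them, CRA1, had 0.955, 0.961, 0 and 0.

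Most of the transcriptome was steady between the 4 libraries. For each of the 10647 genes with a mean of at least 20 scaled reads, the spread was measured as the coefficient of variation (CV) left after counting error, the square root of CV squared minus 1 over the mean. Its median was 0.0899, and 3104 genes (29.2%) varied no more than counting alone would give. A gene was called variable at 0.3 or more, which 589 genes (5.53%) reached. The largest gap between the lowest and highest library was at least 2-fold in 813 genes and at least 4-fold in 37.

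**Figure D2:**
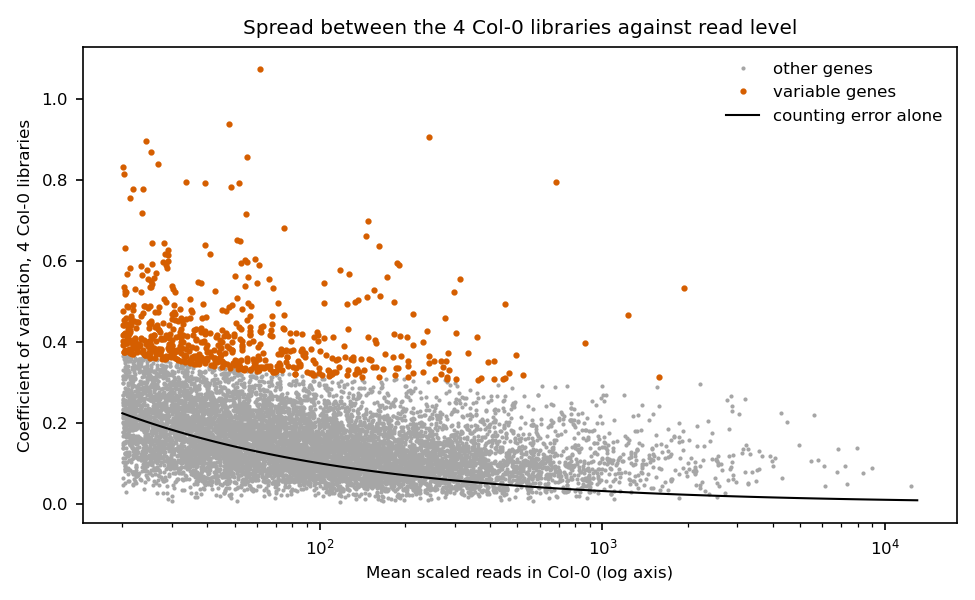
Each point is a gene, with its mean scaled reads in Col-0 on a log axis and the coefficient of variation over the 4 libraries on the vertical axis; the line is counting error alone. The 589 variable genes lie above the bulk, mostly below 100 scaled reads, and the median spread beyond counting error over all genes is 0.0899.

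Variable genes were mostly of modest level: 478 had a mean of 20 to 100 scaled reads. So did 6087 of all 10647 genes. The variable share was 7.85% in that class, 2.51% at 100 to 1000 scaled reads and 1.18% at 1000 and over. Of the 255 genes above 1000, 3 were variable. These 3 were AT4G16260, a glycosyl hydrolase family gene (3479.8, 1464, 1581 and 1238), AT4G17520, an mRNA-binding family gene (2093, 949, 1010.2 and 888), and RAN-1, a small GTPase of nuclear transport (1696, 1839.7, 1937 and 852). The first pair stood high in replicate 1 and the third stood low in replicate 4. At the other end, MYB44, a regulator of stress signalling, had 574, 568, 567 and 568 scaled reads, and TUB6, a tubulin used as a reference, had 697, 664, 643 and 683. Of 9 reference genes with at least 20 reads, a list added after values were seen, 0 were variable.

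Most variable genes were not variable in tt4-11, whose libraries had no part in choosing them, but a larger share of them was than of all genes. Variable genes had a median CV beyond counting error of 0.0886 over the 3 tt4-11 libraries, against 0.0438 over all genes. Of the 507 with at least 20 scaled reads there, 62 (12.2%) were variable by the same rule, where 3.55% of all genes at that level were. Since variable genes are mostly of modest level, the shares were also taken within levels, a split added after seeing the data. At a tt4-11 mean of 20 to 100 scaled reads, 50 of 397 (12.6%) were variable, against 5.23% of all genes, and at 100 to 1000, 12 of 108 (11.1%), against 1.35%.

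Replicate 1 stood apart most. The first principal component of the log2 values held 49.5% of the variance and placed replicate 1 at 29.3 and replicates 2 to 4 at -7.68, -5.44 and -16.2. The second held 27.8% and set replicate 2 (19.1) against replicate 3 (-17.5). When each gene was assigned by the widest gap between its 4 ordered log2 values, 264 variable genes (44.8%) were high or low in replicate 1 alone, compared with 30.2% of all genes. Without replicate 1, 400 genes were variable, of which 237 were among the 589.

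The commonest patterns among variable genes were high in replicate 1 (170 genes), low in replicate 1 (94) and high in replicates 2 and 4 (43). The last one was 7.30% of variable genes and 4.39% of all genes. Of the other pairings, replicates 1 and 2 were high in 28 variable genes, 3 and 4 in 28, 1 and 3 in 26, 1 and 4 in 5, and 2 and 3 in 4. Base composition moved with these patterns. Across 10640 genes, Spearman's rho between a gene's deviation and its exon GC content was 0.209, -0.0713, 0.0706 and -0.275 in replicates 1 to 4, a description since genes are not independent replicates. The median exon GC was 42.1% in variable genes high in replicate 1 and 39.5% in those low in replicate 1. It was 39.1% in those high in replicates 2 and 4, 43.1% in the 28 low in replicate 4, and 41.5% in all genes. With the GC trend of each library removed, 128 of the 170, 71 of the 94 and 32 of the 43 were still variable.

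**Figure D3:**
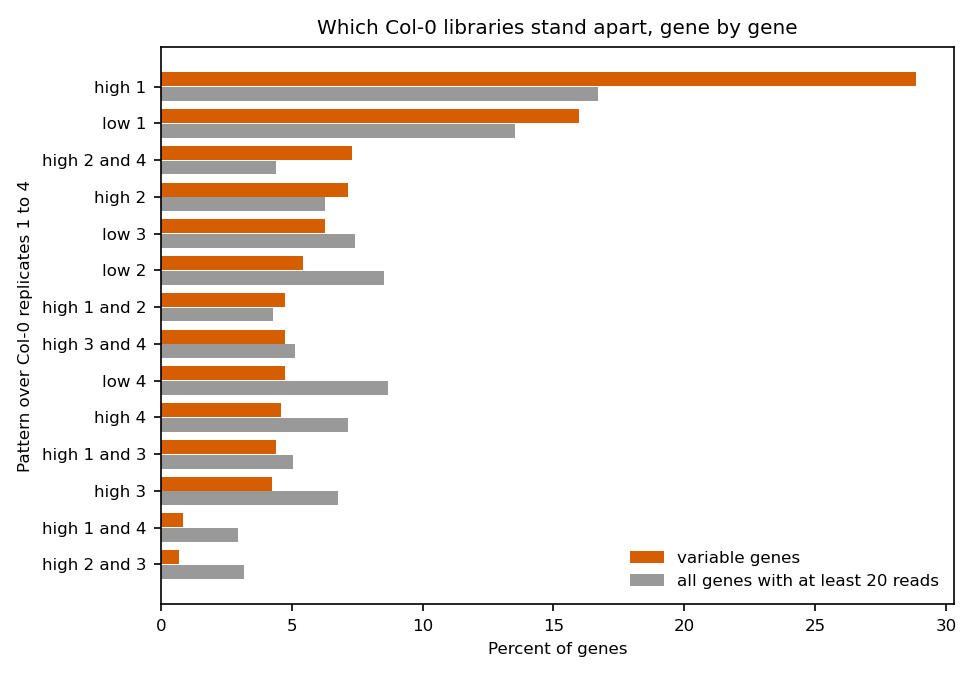
Bars give the percent of the 589 variable genes (orange) and of all 10647 genes (grey) whose widest gap sets the named Col-0 replicates apart. Genes high in replicate 1 make up 28.9% of variable genes and 16.7% of all genes.

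Genes high in replicate 1 included some known to act in protein synthesis and folding. AT4G10480, a subunit of the complex that meets nascent proteins at the ribosome, had 570.3, 159, 108 and 134 scaled reads, the widest spread of this pattern at a CV beyond counting error of 0.902. AT1G47970, annotated as nucleolin, an RNA-binding protein of the nucleolus, had 315, 99.0, 125 and 107. RPL24, a chloroplast ribosomal protein gene, had 356, 159.6, 147 and 102. In each of the 3, replicate 1 was at least 2-fold above the next library.

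BIP2, a chaperone of the endoplasmic reticulum, had 288, 121, 128 and 114 scaled reads, and MSD1, the mitochondrial manganese superoxide dismutase, had 493, 249, 236 and 231. GRP7, an RNA-binding protein of the circadian clock output, had 564, 249.9, 266 and 169 scaled reads, and the histone gene HIS4 had 381, 159, 173 and 244. All 4 were highest in replicate 1. AT5G27990, annotated for pre-rRNA processing, was also high there at 111, against 33.6, 53.4 and 38. Yet ribosomal proteins as a group were not unusually variable: 15 of 262 (5.73%) were variable, near the 5.53% of all genes, and 38.2% of them were highest in replicate 1 against 33.5% of all genes.

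In tt4-11, 32 of the 170 genes high in replicate 1 were lower and 2 higher than in Col-0, which is 18.8% and 1.18%, where 7.94% of all genes with at least 20 reads were lower and 7.68% higher. The same Col-0 values placed these genes in the pattern and entered that comparison, so nothing is read from those shares. GRP7 is one of them, at 58.0, 61.7 and 33.7 scaled reads in tt4-11, below every Col-0 library. It fell by 2.49 on the log2 scale (SE 0.29, adjusted p = 5.32e-05 with limma), a call with the same limit.

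A second set was high together in replicates 2 and 4, and several of its members are known as genes induced quickly by cold, touch, wounding or pathogen signals. NUDT21, a Nudix hydrolase, had 9.55, 111, 23.3 and 77 scaled reads in replicates 1 to 4, a 10.7-fold range (with 1 added to each value), and the related NUDT4 had 12.4, 95.2, 21.3 and 78. ZAT10, a zinc-finger repressor of stress responses, had 13.4, 95.2, 22.3 and 63. In all 3 the order was the same, with replicate 2 highest, then 4, then 3, and replicate 1 lowest.

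CAF1a (53.5, 286, 86.4 and 168) and CAF1b (21.0, 95.2, 31.1 and 56), deadenylases that shorten the tails of messenger RNAs, followed the same order. So did HSPRO2, a defence gene, at 65.9, 279, 85.4 and 153 scaled reads. DIC2, a mitochondrial dicarboxylate carrier, differed only in that replicate 3 was lowest (47.8, 144, 28.1 and 78). CML23, a calmodulin-like protein, at 5.73, 41.3, 18.4 and 36, and AT4G27652, an uncharacterized gene, at 9.55, 91.3, 34.9 and 84, were low in replicate 1 and showed the same order.

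**Figure D4:**
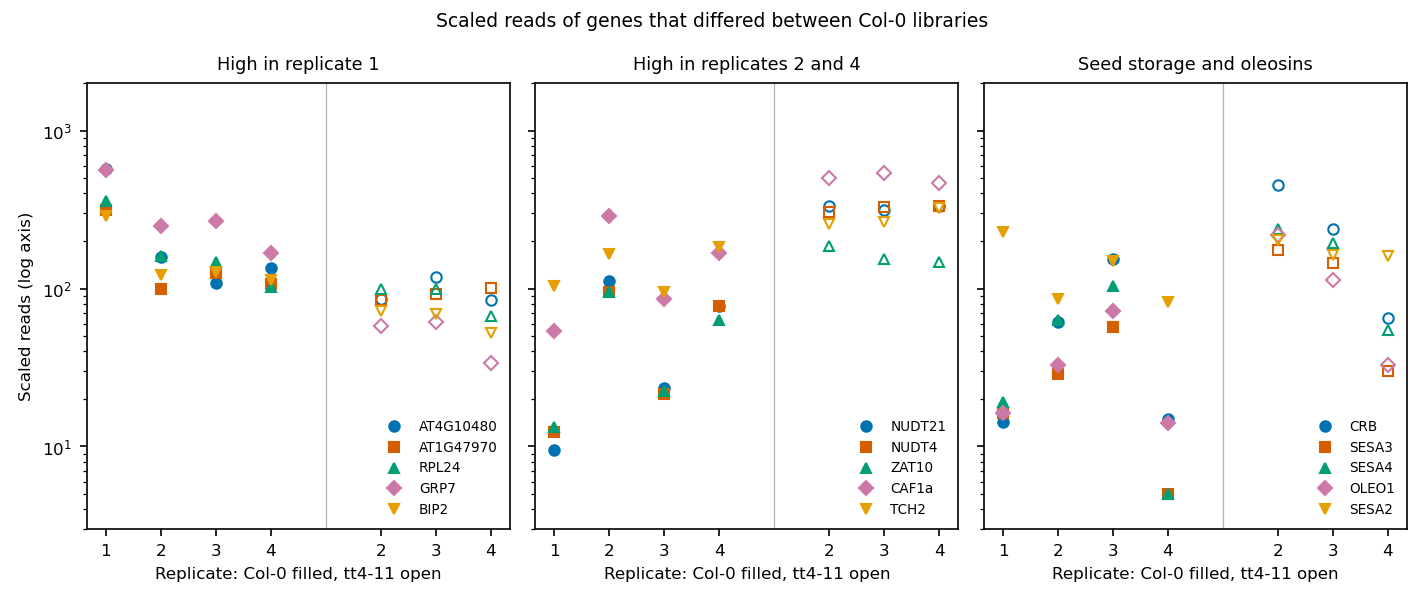
Scaled reads on a log axis for 15 genes in each Col-0 replicate (filled) and each tt4-11 replicate (open); CRB is cruciferin CRU2. AT4G10480 runs from 108 to 570.3 with its peak in replicate 1, NUDT21 from 9.55 to 111 with its peak in replicate 2, and SESA4 from 5 to 104 with its peak in replicate 3.

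The list of rapid stress regulators as a whole leaned the same way. Its 28 members with at least 20 scaled reads deviated from their own mean by a median of -0.29, 0.25, -0.07 and 0.17 on the log2 scale in replicates 1 to 4, against 0.02, -0.01, 0.01 and -0.01 over all genes. Of the 28, 18 were highest in replicate 2 (64.3%, against 20.4% of all genes). Also, 18 were lowest in replicate 1, where 29.0% of all genes were lowest, and 8 were variable (28.6%, against 5.53%). Not all members took part: WRKY33, a regulator of defence against fungi, had 61.1, 74.0, 73.8 and 72 scaled reads, and MYB44 was among the steadiest genes of the table.

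All 3 tt4-11 libraries stood above all 4 Col-0 libraries in 19 of the 43 variable genes high in replicates 2 and 4 (44.2%), against 14.3% of all genes. Since the Col-0 values were used to choose the 43, that share is a description. NUDT21 reached 334, 314 and 332 scaled reads in tt4-11 and CAF1a 499.7, 542 and 465, so the highest Col-0 library lay between the other Col-0 libraries and tt4-11 for both. NUDT21 varied 10.7-fold over the 4 wild-type replicates and ran from 314 to 334 over the 3 of tt4-11. Its spread in Col-0 was a reason for naming it, so nothing is read from the narrower range in tt4-11.

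The promoters shown above belong to 5 of these 43 genes, the 11.6% whose 250-base window holds CGCGTT, where 277 of the 10640 genes with at least 20 reads and a sequence and 2.82% of all 21153 promoters of table genes hold it. The G-box was found in 7 of the 43 (16.3%), against 7.42% of genes with at least 20 reads. Neither share is particular to this pattern: of the 28 variable genes low in replicate 4, 3 windows held CGCGTT (10.7%) and 5 the G-box (17.9%), and CGCGTT was in 3 of the 42 genes high in replicate 2 (7.14%). Among all 589 variable genes the shares were 3.06% and 7.13%. The evening element (AAAATATCT) and the RY repeat (CATGCA), searched in the same way, were in 3 of the 43 each (6.98%), against 2.45% and 7.29% of genes with at least 20 reads. AT4G27657 had 14.3, 78.8, 14.6 and 49 scaled reads, ERD15 36.3, 112, 36.9 and 79, and TCH2 103, 166, 95.1 and 184. AT1G32928 had 10.5, 34.6, 15.5 and 38, and AT1G66500 had 14.3, 32.7, 14.6 and 37. In each of the 5, replicates 2 and 4 lay above replicates 1 and 3. A match is only a run of letters, and NUDT21, NUDT4, CAF1a and CAF1b have no CGCGTT in this window.

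Ribosomal RNA moved with replicate 2. AT3G41768, annotated as an 18S ribosomal RNA gene, had 377, 1483, 554 and 317 scaled reads, and annotated rRNA genes held 0.0185%, 0.0756%, 0.0277% and 0.0164% of reads. It was highest where the rapid stress genes were highest, but replicates 3 and 4 stood in the opposite order. Any part of it in those results was not tested. Without rRNA genes, 588 genes were variable.

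Seed storage transcripts varied most of all groups, in an order of their own. CRU2, the cruciferin that is a main storage globulin, had 14.3, 61.5, 154 and 15 scaled reads in replicates 1 to 4, the highest CV beyond counting error (1.07) among genes with at least 50 scaled reads. The albumin genes SESA3 (16.2, 28.8, 57.3 and 5) and SESA4 (19.1, 63.4, 104 and 5) and the oil-body protein OLEO1 (16.2, 32.7, 71.8 and 14) followed it. Replicate 3 was highest and replicate 2 second in all 4 genes.

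Of 7 list members with at least 20 scaled reads, 6 were variable (85.7%, against 5.53% of genes), with median deviations of -0.26, 0.45, 1.37 and -1.30. SESA2 departed from the rest at 228, 85.5, 149 and 82, highest in replicate 1. The SESA genes are similar in sequence, so reads of single members are uncertain. The tt4-11 libraries also differed among themselves, with CRU2 at 449, 239 and 65.5 and OLEO1 at 217, 113 and 32.7 in replicates 2 to 4. CRU2 was higher in tt4-11, at 251 ± 192 against 61.3 ± 65.8 scaled reads (SD, n = 3 and 4; adjusted p = 0.0314 with limma), although the groups overlapped. The CRU2 call was lost with DESeq2 (adjusted p = 0.204), without Col-0 replicate 1 or 4 (0.0551 and 0.0704 with limma) and without tt4-11 replicate 2 or 3 (0.169 and 0.113 with limma).

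Genes that use the seed's oil reserve, a list added after values were seen, did not follow the storage genes. KAT2, a thiolase of fatty-acid breakdown, had 1035, 955, 1036 and 1010 scaled reads and was not variable. ICL, isocitrate lyase of the glyoxylate cycle, was the 1 variable member of 13 and was low in replicate 2 alone (502, 123, 577 and 600). ADH1, an enzyme of fermentation, was also lowest in replicate 2 at 19.2, against 37.3, 32.0 and 57.

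Nutrient genes formed further patterns. Iron-deficiency genes were highest in replicate 3 in 9 of 13 members (69.2%, against 22.3% of all genes). Of the 13, 5 were variable (38.5%, against 5.53%). IRT1, the root iron transporter, had 247, 231, 427 and 237 scaled reads, and FRO2, the root ferric reductase, had 321, 184, 398 and 216. FIT, the transcription factor that activates both, had 36.3, 15.4, 43.7 and 22. FRO2 and FIT were high in replicates 1 and 3, while IRT1 stood out in replicate 3 alone. BHLH100, a shoot and root regulator of iron uptake, split differently, at 61.1, 60.6, 106 and 126.

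Phosphate-starvation genes had median deviations of -0.26, 0.32, -0.20 and 0.18 over 16 members, higher in replicates 2 and 4. SPX1, an intracellular phosphate sensor, had 83.1, 192, 127 and 223 scaled reads, and the phosphatase gene PS2 had 134, 285, 115 and 195. IPS1, a non-coding RNA that sequesters a phosphate-responsive microRNA, had 40.1, 81.7, 30.1 and 58. Of the 16, 5 were variable (31.3%, against 5.53% of all genes) and 8 were highest in replicate 2, where 20.4% of all genes were. The 5 highest in replicate 4 (31.3%) stood nearer to the 23.8% of all genes. In tt4-11, SPX1 stood at 153, 97.6 and 157, PS2 at 146, 76.4 and 116, and IPS1 at 43.0, 30.4 and 53.9. These values overlapped Col-0 for all 3 and were not called different (adjusted p = 0.772, 0.102 and 0.615 with limma). PS2 was called lower without Col-0 replicate 3 (adjusted p = 0.0465 with limma). Whether the genotype difference of these genes departs from that of NUDT21 and NUDT4 was not tested.

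**Figure D5:**
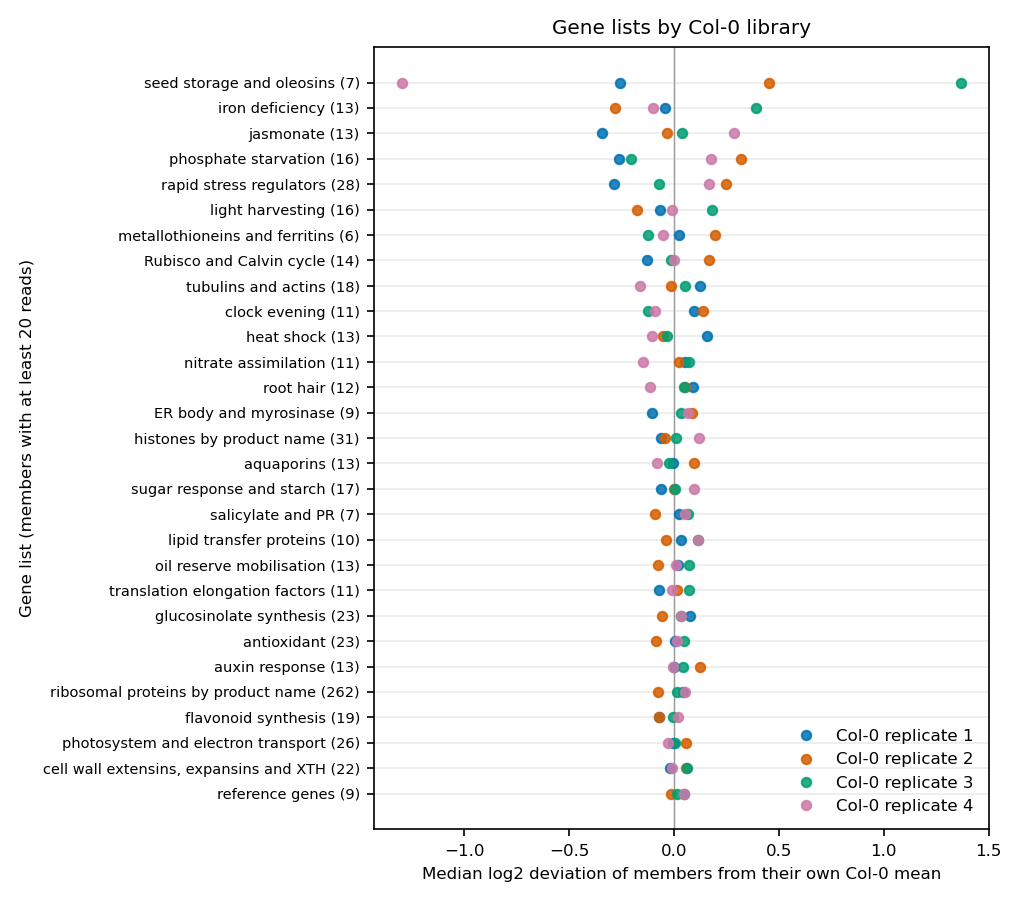
Each row is a gene list, with its number of members holding at least 20 scaled reads in brackets, and the points give the median log2 deviation of the members in each Col-0 replicate from their own Col-0 mean. Seed storage genes span from -1.30 to 1.37, and rapid stress regulators from -0.29 to 0.25.

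Jasmonate genes were highest in replicate 4: 11 of 13 members were highest there (84.6%, against 23.8% of all genes), with median deviations of -0.35, -0.03, 0.04 and 0.28. LOX2, a chloroplast lipoxygenase at the start of jasmonate synthesis, had 2329.7, 3007, 3126 and 4317 scaled reads, and AOS, the next enzyme, had 213, 279.7, 312 and 395. The defensin PDF1.2, the 1 variable member, had 9.55, 20.2, 31.1 and 52. All 3 were lowest in replicate 1 and highest in replicate 4. FAMT, a methyltransferase, and TAT3, a jasmonate-induced aminotransferase chosen after its values were seen, were high in both replicates 3 and 4, at 21.0, 25.0, 82.5 and 81 and at 53.5, 76.9, 198 and 177.

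Of 16 light-harvesting genes, 11 were highest in replicate 3 (68.8%, against 22.3% of all genes). The median deviation of the list there was 0.18 on the log2 scale. LHCB2.3 was the 1 variable member (55.4, 72.1, 123 and 88), a share of 6.25%, near the 5.53% of all genes. The flavonoid list had 6 variable genes of 19, where 5.53% of all genes were variable, and they had no common order. MYB12, an activator of early flavonoid genes, was high in replicate 1 (68.8, 43.3, 33.0 and 32), while the later gene DFR, for dihydroflavonol reductase, was low there (43.9, 62.5, 80.5 and 102). TT4 itself varied 1.28-fold. Of the 29 lists with at least 6 members at this level, 7 held no variable gene. At 5.53% of all genes, lists of this size would hold few, so nothing is read from those counts of 0.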

How the data were processed

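PolyA-enriched, stranded single reads of 100 bases were sequenced on a HiSeq 2500, per the labels. TopHat2, HISAT2, HTSeq and DESeq2 are listed in the submitters' processing notes. Not given in the sources used here are their versions and the authors' genome build. The deposited signal values of Col-0 replicates 1 to 3 and tt4-11 are read counts the authors scaled by a factor per library, and the deposited column of Col-0 replicate 4 holds whole counts. Dividing by each library's step gave whole reads in 100% of values (tolerance 0.01). A repeated row was dropped, which left 23051 models, and the models of a gene were summed. Genes were matched to the TAIR10.1 annotation by locus identifier (21154 of 21184), which supplied exon lengths, positions, GC content and promoters.

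Spread, patterns and lists are descriptions of 4 samples with no test. Intervals and floors cover counting error only. Principal components and deviations used log2(value + 1). The context comparison used limma 3.58.1 with trend on log2(value + 1), genes kept by filterByExpr (minimum count 10), two-sided, Benjamini-Hochberg adjusted p of 0.05 (1811 of 13301, 13.6%). A fold change on that scale understates changes of genes with few reads. edgeR 4.0.16 and DESeq2 1.42.0 on recovered reads were alternatives. The fit and the spread measure were checked on simulated data.

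Genes were named by a rule: the top 20 by reads and per kilobase, the 20 with the highest CV among variable genes of at least 50 scaled reads, 4 of each of the 3 commonest patterns by range, the top member and up to 3 variable members of each list, TT4 and the tissue markers. Other genes named were chosen after their values were seen. The rule, the members and all lists were written with earlier results of these data known, and the reference and oil-reserve lists and the motif search were added after seeing values. TAIR10.1 symbols were used, and a few list entries without a match were dropped.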

Additional observations from a re-analysis of the deposited data

Results flagged for a closer look

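Among the 125 named genes with at least 20 scaled reads, 16 had 1 Col-0 library far from the other 3, judged by the gap to the nearest library as a share of the whole range (above Dixon's 95% critical value). Chance flags about 5% of groups, and 617 of all genes at this level (5.80%) were flagged. Some named genes were chosen for a wide spread or for 1 library standing apart, so no excess over that share is read. The gap shares were 0.874 for RABE1b, 0.853 for RBCS2B, 0.876 for AT1G74470, 0.860 for AT2G37220 and 0.884 for TCTP among the genes of highest level. They were 0.890 for AT4G10480, 0.879 for AT1G47970, 0.884 for AT4G29020, 0.904 for AT5G60030, 0.924 for AT2G41200, 0.931 for MSD1 and 0.919 for BIP2 among variable genes and list members. They were 0.871 for UF3GT, 0.908 for IMS2, 0.834 for CSLD3 and 0.915 for IRT1. The summed cell wall list (0.857), heat shock list (0.849) and light-harvesting list (0.892) were flagged too, the cell wall and light-harvesting lists for replicate 3 and the heat shock list for replicate 1.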

How the results depend on the processing

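No result reversed. With only genes of 1 annotated model, 709 genes held 50% of the reads, the top 10 held 4.595% and 371 genes were variable. The number of variable genes was 254 with a minimum mean of 50, 3805 with no filter and 1833 at a CV of 0.2. The first component held 49.97% with a pseudocount of 5, 39.1% with no filter, 49.2% with TMM scaling, and 48.3% with the GC trend removed, an alternative added after seeing the data. Leaving out 1 Col-0 library in turn gave 1075 to 1088 genes holding 50% of the reads and 3.77% to 3.82% in the top 10. It gave 400 to 826 variable genes and 53.9% to 67.0% on the first component. The first component of 3 libraries cannot hold less than 50%, so these shares are not comparable with that of all 4. Leaving out 1 of the 7 libraries gave 896 to 1782 called genes. edgeR called 1863 genes and DESeq2 1437. With the replicate number as a block, which leaves out Col-0 replicate 1, 1688 genes were called. The same libraries without the block gave 1647. Same-numbered libraries correlated at 0.0166 to 0.0644 in their deviations, and 6 of 6 libraries correlated best with their own number. Correlations this low cannot decide whether the numbers pair the libraries. Of 148 named genes, which include genes that were never variable, 24 were no longer variable without replicate 1, GRP7 and SPX1 among them. Without replicates 2, 3 and 4 the numbers were 11, 7 and 9. Of all 589 variable genes, 40.2% stayed variable without replicate 1. Genes below 20 scaled reads were too shallow for a spread beyond counting error.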
